A study of Mus musculus with 30 samples.

Results

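The mitochondrial carrier family (Slc25) and the uncoupling proteins were examined in the hearts of mice labelled as Cpt1a knockouts or given a Cpt1a vector, with and without pressure overload. Members were taken by name: each protein-coding row of the deposited count table whose GENCODE mouse symbol begins with Slc25a, together with Ucp1, Ucp2 and Ucp3. This gave 50 genes of 55487 rows in the table, 21974 of which are protein-coding. The naming rule itself uses no measured value. The carnitine-acylcarnitine carrier Slc25a20, the heart-type ADP/ATP carrier Slc25a4 and the muscle uncoupling protein Ucp3 were counted in all 30 libraries. Their lowest values were 38.6, 1575 and 11.6 counts per 1000000 counts of a library (CPM), in that order.

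Mitochondrial carriers are small proteins of the inner mitochondrial membrane that move metabolites between the cytosol and the matrix. Examples are ADP for ATP, malate for oxoglutarate, aspartate for glutamate, phosphate, other amino acids, cofactors and iron. In heart muscle the ADP/ATP and phosphate carriers serve ATP synthesis, and Slc25a20 brings long-chain acylcarnitines, made by the carnitine palmitoyltransferases of the outer membrane, into the matrix for oxidation. The uncoupling proteins belong to the same fold family: Ucp1 lets protons back into the matrix in brown fat, while Ucp2 and Ucp3 have debated roles linked to fatty acid handling and oxidative stress.

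The study aimed to lower Cpt1a, the liver-type carnitine palmitoyltransferase, in a floxed cohort and to add it by gene transfer in a second cohort, and asked what this does to the overloaded heart. Hearts were collected at 8 weeks from mice that had their aortic arch narrowed with a clip (transverse aortic constriction, TAC), so that the left ventricle pumps against a higher pressure, or that had a sham operation. Within the floxed cohort, FF_sham and FF_TAC are mice labelled CPT1a floxed, and KO_sham and KO_TAC are mice labelled as cardiac-specific CPT1a knockouts, with 4 hearts in each group. The Cre driver of the knockout was not given in the sources used here, and the sample titles of KO_TAC name both TAC and sham, so the genotype and treatment labels were used. In the AAV9 cohort all mice are C57Bl/6: PBS_sham and PBS_TAC had 3 hearts each after PBS, and AAV_sham and AAV_TAC had 4 hearts each after the vector AAV9.cTNTN.Cpt1a, described as cardiac-specific. The controls of that cohort received PBS rather than an empty vector. Age and sex were not given.

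Some libraries stood apart. Totals lay between 14839758 and 22070373 counts per library, and the 50 members held 0.458% to 0.996% of them. Summed haemoglobin transcripts were under 100 CPM in 7 floxed libraries (1.40 to 51.1 CPM) and 384 to 678 CPM in the other 9. The 7 are FF_TAC 2 and 3, KO_sham 2 and every KO_TAC library, and the same 7 had 1920 to 5605 CPM of 12 summed early response genes (Fos, Egr1 and others) against 221 to 327 CPM. Haemoglobin content and the KO_TAC group therefore cannot be told apart by comparing KO_TAC with haemoglobin-high hearts. The atrial light chain Myl7 ranged from 0 to 3147 CPM with at least 100 CPM in 11 libraries, a spread that marks unequal amounts of atrial RNA. KO_TAC 1 had the 3147 CPM, and PBS_sham 3 had 25666 CPM of summed cardiomyocyte markers against 46223 to 69237 CPM in the other 29 libraries. In the floxed cohort Cpt1a went against the label in 3 libraries: the library labelled KO_sham 2 had 46.3 CPM, within the FF_sham values of 37.8 to 52.7 CPM, while FF_TAC 2 and 3 had 20.3 and 16.2 CPM, no more than the other 3 KO_sham libraries (20.3 to 23.7 CPM). The KO_TAC libraries held 11.1 to 19.6 CPM of Cpt1a. Among sham hearts the knockout label went with a log2 difference of −0.68, not called at an adjusted p of 0.950. KO_TAC stood −1.07 from FF_TAC and −0.99 from KO_sham, and both were called (adjusted p = 0.0405 and 0.0383, respectively). FF_TAC stood −0.59 from FF_sham and was not called (adjusted p = 0.495). Whether the deleted exons still give counts is not known from the files. In the AAV9 cohort Cpt1a was 88.4, 56.3, 73.3 and 67.4 CPM in AAV_sham against 37.4, 50.8 and 68.0 CPM in PBS_sham, and 52.0, 62.7, 59.96 and 44.8 CPM in AAV_TAC against 57.1, 61.6 and 40.3 CPM in PBS_TAC. Both pairs overlap, and Cpt1a was not called in either (log2 0.45, SE 0.22, adjusted p = 0.248, and log2 0.05, SE 0.21, unadjusted p = 0.820).

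Carrier transcripts spanned several orders of magnitude. On a per-length scale (CPM per kilobase of exon, the only scale used here to compare genes), Slc25a4 had a median level of 1931 over the 30 libraries. It was followed by the phosphate carrier Slc25a3 at 276, the oxoglutarate-malate carrier Slc25a11 at 219 and the widely expressed ADP/ATP carrier Slc25a5 at 150. Slc25a4 alone made up 47.7% to 65.0% of all member counts in a library. The orphan carrier Slc25a34 (61.2), the glutathione carrier Slc25a39 (40.6) and Slc25a20 (39.5) came next, then the aspartate-glutamate carriers Slc25a13 (32.4) and Slc25a12 (26.1), and Ucp3 (20.0). The ranges over libraries overlapped between most neighbours in this order: Slc25a3 ranged from 82.5 to 329 and Slc25a11 from 43.6 to 264. Slc25a4, whose lowest library had 670, lay above every library of any other member. At the other end, Slc25a41 had no count in any library, Slc25a54 had at most 3 counts, Slc25a21 at most 6, Slc25a2 at most 12, Slc25a48 at most 14 and Slc25a43 at most 18. A count of 0 allows up to 3 counts per library, and this limit covers counting error only.

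**Figure D1:**
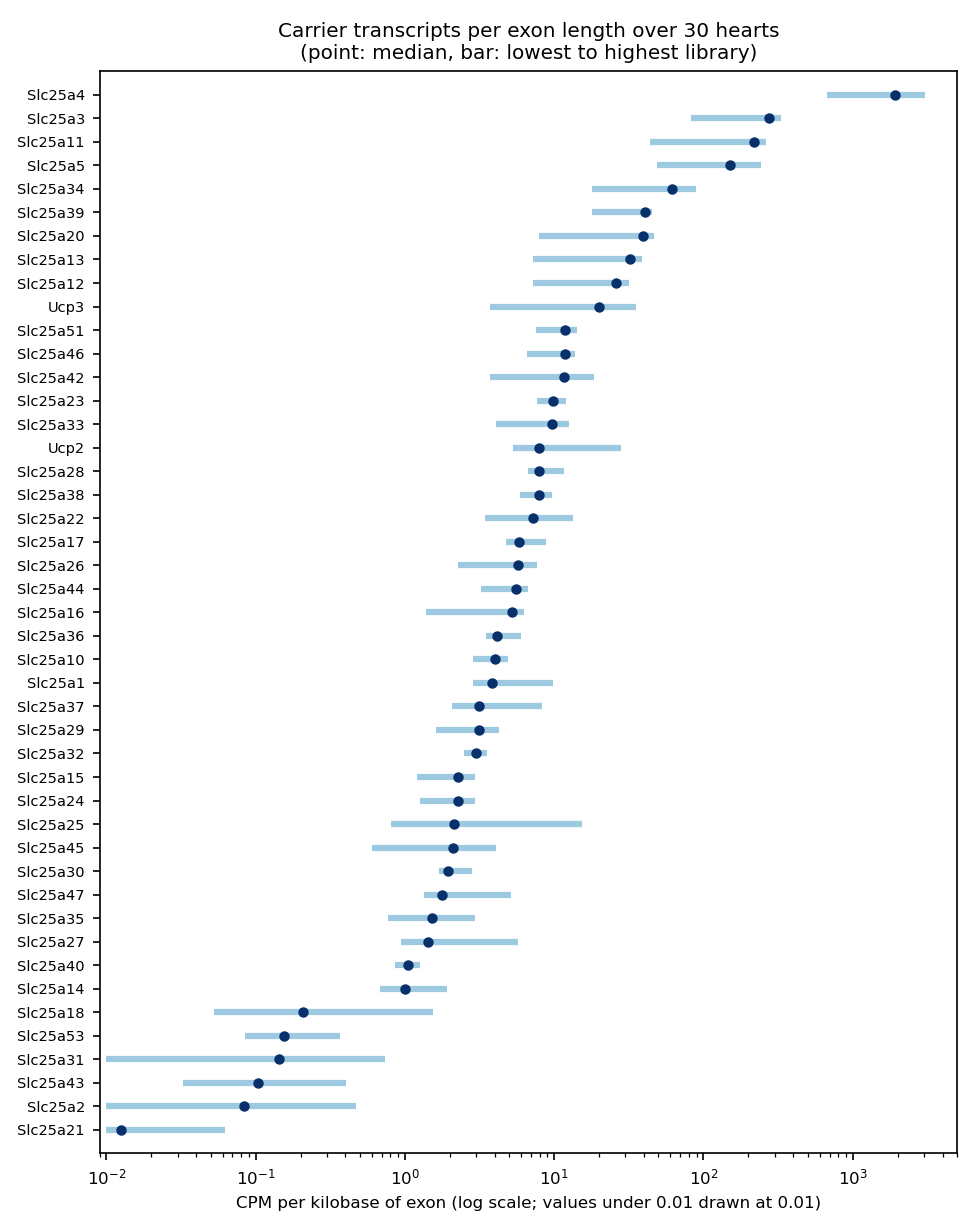
Level of the members reported here with a median above 0, as CPM per kilobase of exon on a log axis. Points are medians over 30 libraries and bars run from the lowest to the highest library; Slc25a4 lies at a median of 1931, with Slc25a3 next at 276.

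After a filter on low counts, 41 members could be tested among floxed-cohort hearts and 43 among AAV9-cohort hearts, where Slc25a18 and Slc25a31 also passed. Slc25a2, Slc25a21, Slc25a41, Slc25a43, Slc25a48, Slc25a54 and Ucp1 passed in neither. Differences were tested with edgeR's quasi-likelihood test, fitted over all genes of a cohort, and a gene counts as called where its p, adjusted by the Benjamini-Hochberg method, was under 0.05. Fold changes are given on the log2 scale with their standard error (SE), and levels as CPM after TMM scaling.

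Overload in the knockout heart went with lower transcript levels of 9 carriers and higher levels of 2. Between KO_TAC and KO_sham, 11 of 41 tested members were called, while 25.8% of all tested genes were. The 9 that fell are Slc25a45, Slc25a42, Slc25a22, Slc25a20, Slc25a15, Slc25a37, Slc25a12, Slc25a51 and Slc25a40, which is 22.0% of the tested members beside 11.5% of all genes. The 2 that rose are Slc25a25 and Slc25a14, or 4.88% beside 14.3% of all genes. The median log2 fold change of the 41 was −0.16, with a median of 0.02 over all genes. Libraries of the groups did not overlap for 13 of the 41 members, 23.1% being the share over all genes. In whole-heart RNA, fewer cells of a type and less RNA per cell cannot be told apart.

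Overloaded knockout hearts also differed from overloaded floxed hearts. Between KO_TAC and FF_TAC, 8 of 41 members were called, beside 14.3% of all genes, and each of the 8 was lower in KO_TAC: Slc25a42, Slc25a34, Slc25a29, Slc25a20, Slc25a13, Slc25a15, Slc25a12 and Slc25a51. Over all genes 6.80% were called lower and 7.53% higher. The median over the 41 was −0.16, with 0.04 over all genes. Both comparisons use the same 4 KO_TAC libraries.

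No member was called in the other floxed comparisons. For FF_TAC against FF_sham 0 of all 15596 genes were called (0%), and 5 of 41 members had an unadjusted p under 0.05 beside 11.1% of all genes. DESeq2 called 1 member there, Slc25a25. For KO_sham against FF_sham the called share was again 0%, with 4 members at an unadjusted p under 0.05 (5.22% of all genes) and 0 by DESeq2. In that comparison 30 of 41 members had a log2 fold change below 0, beside 49% of all genes. The interaction of knockout and TAC, which asks whether the overload difference depends on genotype, was called for 0.0449% of all genes and for no member by edgeR or DESeq2, while 4 members had an unadjusted p under 0.05 beside 13.1% of all genes. Its smallest member p values were those of Slc25a12 (log2 −0.35, SE 0.14, adjusted p = 0.287), Slc25a37 (−0.51, SE 0.21, adjusted p = 0.309) and Slc25a40 (−0.36, SE 0.16, adjusted p = 0.357), so a greater fall in the knockout was not shown for any carrier.

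**Figure D2:**
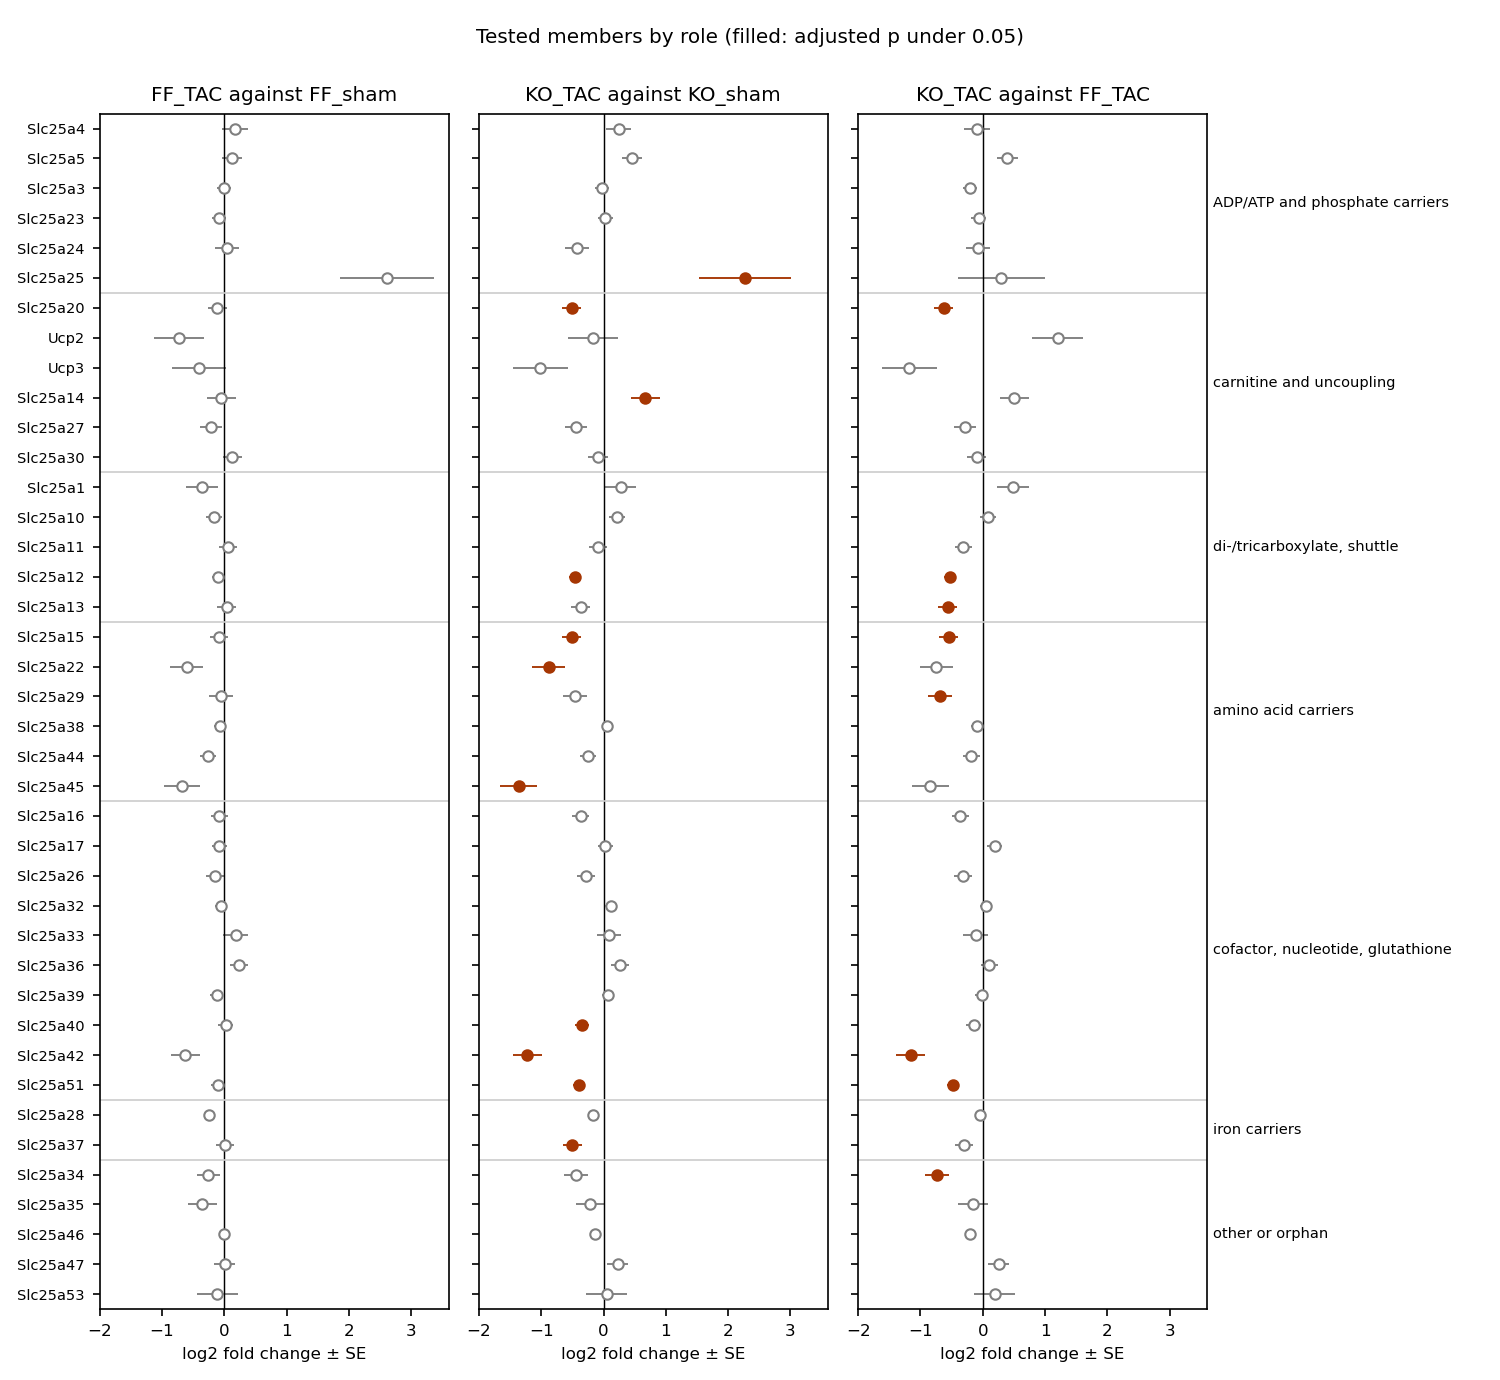
Log2 fold change with its SE for members tested in the floxed cohort and reported here, grouped by transport role, in 3 comparisons. Filled points passed the adjusted threshold of 0.05: none for FF_TAC against FF_sham, 11 for KO_TAC against KO_sham and 8 for KO_TAC against FF_TAC, the last all to the left of 0.

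Other measures moved with KO_TAC, and their part in these counts was not tested except where stated. The 4 atrial markers (Myl7, Myl4, Sln and Nppa) summed to 4504 to 17229 CPM in KO_TAC, 106 to 3156 CPM in KO_sham and 153 to 492 CPM in FF_TAC, without overlap. Only 1 of 4 was called higher in each comparison. Myl7, the defining marker among them, was under 1 CPM in KO_TAC 2, 3 and 4, so the sums of those hearts are not read here as amounts of atrial tissue. Mitochondrially encoded transcripts held 12.1% to 18.7% of counts in KO_TAC, 21.6% to 24.4% in KO_sham and 20.9% to 22.6% in FF_TAC. Summed fibroblast markers were 1860 to 2385 CPM in KO_TAC against 1004 to 1551 CPM in KO_sham and 987 to 1065 CPM in FF_TAC, with 3 of 6 markers called higher in both comparisons. Macrophage markers summed to 386 to 452 CPM in KO_TAC, 265 to 546 CPM in KO_sham and 205 to 278 CPM in FF_TAC, with 1 of 7 called higher against KO_sham and 5 of 7 against FF_TAC. Endothelial markers summed to 449 to 626 CPM against 609 to 819 CPM in KO_sham and 660 to 879 CPM in FF_TAC, with 3 of 5 called lower in both. None of the 12 early response genes was called in either comparison. Cardiomyocyte markers summed to 46223 to 68538 CPM in KO_TAC and 53535 to 59680 CPM in KO_sham and 56770 to 66319 CPM in FF_TAC. Of the 7 genes 1 was called higher and 2 lower against KO_sham, and 1 lower against FF_TAC. With a term for haemoglobin-low libraries added to the fit, 0 members were called between KO_TAC and KO_sham beside 1.75% of all genes, and 3 (Slc25a12, Slc25a42 and Slc25a51) between KO_TAC and FF_TAC beside 7.23%. Leaving out KO_TAC 1, the library with the most Myl7, gave 15 and 12 called members, when 40.8% and 24.3% of all genes were called, and leaving out KO_sham 2 gave 10 for KO_TAC against KO_sham (20.0% of all genes).

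The count for KO_TAC against KO_sham was 5 without KO_sham 1 (17.9% of all genes called), 5 without KO_sham 3 (16%), 7 without KO_sham 4 (16%), 6 without KO_TAC 2 (16.7%) and 4 without KO_TAC 3 (12.3%). Slc25a12, Slc25a42, Slc25a45 and Slc25a51 were called in each of the 8 fits that left out a library. For KO_TAC against FF_TAC it was 5 without FF_TAC 1 (8.65% of all genes), 11 without FF_TAC 2 (17.5%) and 10 without FF_TAC 3 (13.0%), and Slc25a12, Slc25a20, Slc25a34, Slc25a42 and Slc25a51 were called in each such fit. Fitted on the 8 hearts of a comparison alone, with fewer hearts to estimate the spread, the counts were 7 and 0, beside 15.5% and 3.79% of all genes.

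Among the carriers that serve ATP export, the main transcripts did not pass the test. Slc25a4 had 3106, 7217, 5057 and 3915 CPM in KO_TAC and 4144, 3857, 4519 and 3800 CPM in KO_sham. KO_TAC 1 was below and KO_TAC 2 and 3 were above every KO_sham heart (log2 0.24, SE 0.20, adjusted p = 0.383). In FF_sham it had 5189, 3699, 4678 and 4679 CPM and in FF_TAC 4743, 6231, 5051 and 4548 CPM, which overlap. Slc25a3, which imports the phosphate for ATP synthesis, was at 1200 to 1742 CPM in KO_TAC and 1344 to 1532 CPM in KO_sham (log2 −0.02, SE 0.11).

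Slc25a5, the ADP/ATP carrier of proliferating and non-muscle cells as well as muscle, had 231, 399, 370 and 304 CPM in KO_TAC, 268, 181, 260 and 237 CPM in KO_sham, 234, 282, 249 and 228 CPM in FF_TAC, and 246, 190, 244 and 229 CPM in FF_sham. KO_TAC 2, 3 and 4 lay above every other floxed heart, and KO_TAC 1 lay inside the range of the others. The difference from KO_sham was 0.46 (SE 0.16) with an adjusted p of 0.0508, just outside the threshold, and 0.58 with an adjusted p of 0.00621 without KO_TAC 1. Per length, Slc25a5 stood at 6.46% to 7.15% of Slc25a4 in FF_TAC and at 7.90% to 11.1% in KO_TAC, with no overlap. In KO_sham the ratio was 6.73% to 9.26%, which overlaps both. Of the calcium-regulated ATP-magnesium/phosphate carriers, Slc25a23 (log2 0.03, SE 0.12) and Slc25a24 (−0.42, SE 0.19, adjusted p = 0.114) were not called between KO_TAC and KO_sham.

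Slc25a25 (ENSMUSG00000026819), the third of these calcium-regulated carriers, had the widest fold range of any tested member across the floxed hearts, 18.9-fold. Its level was 8.07, 9.32, 8.99 and 9.19 CPM in FF_sham and 6.36, 81.1, 120 and 9.84 CPM in FF_TAC. In KO_sham it was 6.36, 32.0, 9.0 and 8.15 CPM, and in KO_TAC 59.3, 60.5, 56.0 and 90.6 CPM. The 7 haemoglobin-low libraries held 32.0 to 120 CPM and the other 9 held 6.36 to 9.84 CPM, in FF_TAC, KO_sham and KO_TAC alike. It was called higher in KO_TAC than in KO_sham (log2 2.27, SE 0.74, a 4.82-fold difference, adjusted p = 0.0351), and the log2 difference was 0.30 with the haemoglobin term. The call was lost without KO_sham 1, 3 or 4 or KO_TAC 2, 3 or 4, with adjusted p values of up to 0.0920. The value for FF_TAC against FF_sham was 2.61 (SE 0.75, adjusted p = 0.328), and it was −0.13 over haemoglobin-high libraries alone. The gene lies at chr2:32414487-32451445 on the minus strand (GRCm38, GENCODE M21) and shares exon sequence with Naif1 on the other strand. Naif1 had 3.23 to 6.56 CPM in the 30 libraries and was not called in any comparison. The strand setting of the counting was not given in the sources used here.

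The early response genes that were high in the same libraries include Fos and Egr1, classic targets of the cyclic AMP response element, so the promoter windows of the members were searched for its 8-letter core, TGACGTCA, which reads the same on both strands. RefSeq windows (GRCm38.p6) from 250 bases before a start site were matched for 39 of the 50 members, 49 windows in all. The core was present in 508 of 32851 windows of all genes (1.55%) and in 2 member windows, one of Slc25a25 and one of Slc25a36, a pyrimidine nucleotide carrier. The stretches are shown because the first belongs to the most variable carrier of the floxed cohort and the second is the other member window with the core. Both are on the minus strand, 5′ to 3′, with the core in capitals.
Slc25a25, chr2:32424179-32424246: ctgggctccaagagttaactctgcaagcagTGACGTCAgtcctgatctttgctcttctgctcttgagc
Slc25a36, chr9:97111165-97111232: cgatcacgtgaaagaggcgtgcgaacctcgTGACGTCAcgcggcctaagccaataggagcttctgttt
Neither stretch overlaps a GENCODE exon, and the core starts 150 bases before one of 3 annotated Slc25a25 starts and 161 bases before the Slc25a36 start. Slc25a36 had 33.7, 57.1, 39.6 and 46.2 CPM in FF_TAC and 43.5, 42.4, 50.2 and 54.0 CPM in KO_TAC, against 35.3 to 40.0 CPM in FF_sham. Its difference between KO_TAC and KO_sham was 0.26 (SE 0.14, adjusted p = 0.182) and was not called. A match of letters is a description and not a bound site. The direct repeat read by PPAR dimers, AGGTCA and again AGGTCA with 1 base of any kind between them, was searched on both strands and found in 0.0335% of all windows and in no member window. The estrogen-related receptor core TCAAGGTCA was found in 0.387% and likewise in none. With shares this small and 49 member windows, finding none says little about the members.

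**Figure D3:**
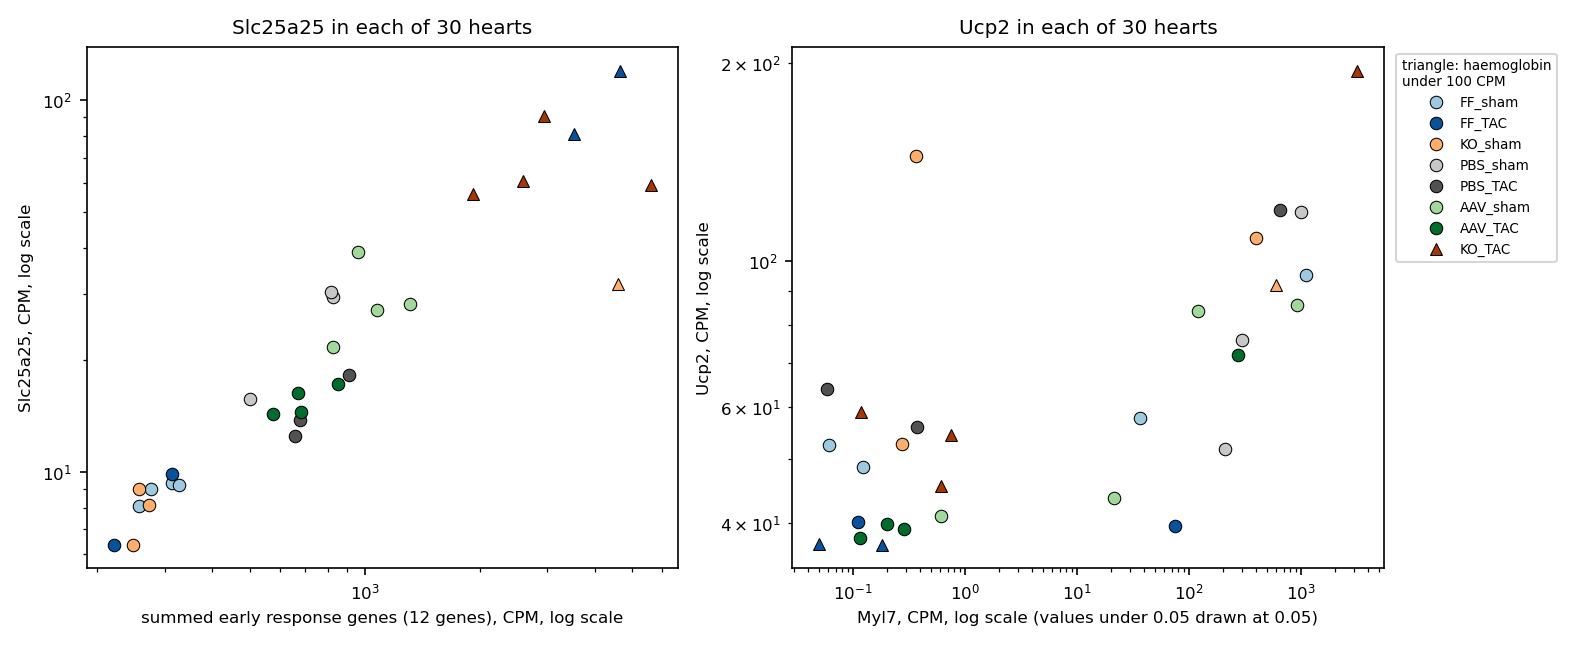
Left, Slc25a25 against the sum of 12 early response genes in each of 30 hearts; right, Ucp2 against the atrial gene Myl7; all axes are log CPM, colours are groups and triangles are libraries with haemoglobin under 100 CPM. On the left the 7 triangles lie at 32.0 to 120 CPM of Slc25a25, and on the right the highest Ucp2 value, 195 CPM, is the heart with the highest Myl7, 3147 CPM.

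The carnitine carrier was lower in overloaded knockout hearts. Slc25a20 (ENSMUSG00000032602, chr9:108662088-108684641, plus strand), which moves acylcarnitines across the inner membrane one step after the carnitine palmitoyltransferases, had 83.5, 155, 141 and 140 CPM in KO_TAC. It had 220, 157, 203 and 160 CPM in KO_sham, 204, 196, 198 and 205 CPM in FF_TAC, and 220, 227, 200 and 219 CPM in FF_sham. Every KO_TAC heart lay below every other floxed heart, the nearest pair being 155 and 157 CPM. The log2 fold change was −0.51 (SE 0.16, 1.43-fold lower, adjusted p = 0.0297) from KO_sham and −0.63 (SE 0.16, 1.55-fold lower, adjusted p = 0.0171) from FF_TAC. The group means were 217 ± 11.4 CPM (SD, n = 4) for FF_sham, 201 ± 4.29 for FF_TAC, 185 ± 31.2 for KO_sham and 130 ± 31.7 for KO_TAC. Without KO_TAC 1 the differences were −0.36 (adjusted p = 0.0228) and −0.48 (adjusted p = 0.00987). The first was not called without KO_sham 1 (adjusted p = 0.0869), KO_sham 3 (0.0706) or KO_TAC 3 (0.0525). Among haemoglobin-low hearts alone, KO_TAC stood −0.63 from FF_TAC 2 and 3, as large as over all hearts, with an adjusted p of 0.511 in that smaller fit. Per length, Slc25a20 was 1.05% to 1.73% of Slc25a4 in KO_TAC and 1.98% to 2.58% in KO_sham, without overlap, and 1.53% to 2.19% in FF_TAC, which overlaps KO_TAC.

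Ucp3, an uncoupling protein of muscle whose transcript follows fatty acid supply, had the values 11.6, 19.1, 28.8 and 55.3 CPM in KO_TAC and 68.6, 84.1, 40.3 and 38.8 CPM in KO_sham. KO_TAC 1, 2 and 3 were lower than any KO_sham heart, and KO_TAC 4 was inside the KO_sham range. FF_sham hearts themselves ran from 37.3 to 109 CPM and FF_TAC hearts from 40.4 to 93.1 CPM. The differences of KO_TAC, −1.02 (SE 0.44, adjusted p = 0.0995) from KO_sham and −1.18 (SE 0.44, adjusted p = 0.0873) from FF_TAC, were not called. They were called without KO_TAC 4 (−1.56, adjusted p = 0.0195, and −1.72, adjusted p = 0.0166).

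Ucp2, a widely expressed relative found in immune and many other cells, had 195, 54.5, 45.5 and 59.1 CPM in KO_TAC and 39.6, 37.1, 37.1 and 40.1 CPM in FF_TAC. The libraries did not overlap, but the difference (log2 1.20, SE 0.41, adjusted p = 0.0614) was not called, and without KO_TAC 1 it was 0.45. In KO_sham Ucp2 had 52.7, 92.0, 144 and 108 CPM. Over all 30 hearts it was 51.8 to 195 CPM where Myl7 was at least 100 CPM and 37.1 to 144 CPM elsewhere, with medians of 92.0 and 45.5 CPM. KO_sham 3, at 144 CPM, had only 0.36 CPM of Myl7. Without KO_TAC 1, Ucp2 was called lower in KO_TAC than in KO_sham (−0.91, adjusted p = 0.0186), while with it the difference was −0.17 (SE 0.40).

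Ucp1, the heat-producing protein of brown fat, had more than 3 counts in 2 hearts. The library FF_sham 2 held 108 CPM (1976 counts), PBS_sham 3 held 1.64 CPM, and the other 28 libraries held at most 0.184 CPM. The adipocyte marker Adipoq was 30.6 CPM in FF_sham 2 and 0.183 to 1.29 CPM in the rest of that group, and the 7 adipocyte markers summed to 249 CPM against 29.1 to 38.3 CPM. The brown adipocyte gene Cidea was 71.7 CPM in FF_sham 2 and 27.4 to 31.1 CPM in the rest of the group. Cidea reached 79.4 CPM in KO_TAC 2. The sum of 6 brown adipocyte genes was 840 CPM in FF_sham 2, inside the 794 to 1104 CPM of its group. In FF_TAC, where every heart had 0 CPM of Ucp1, the same sum was 795 to 1072 CPM. Because it is this high without Ucp1, it cannot decide whether FF_sham 2 held brown fat. PBS_sham 2, with 41.7 CPM of Adipoq and an adipocyte sum of 435 CPM, had 0.0554 CPM of Ucp1. By group, the adipocyte sum ran from 20.9 to 97.2 CPM in the other floxed groups, 48.8 to 435 CPM in PBS_sham and 24.7 to 83.1 CPM in the other AAV9 groups, and its part in the Ucp1 value was not tested. Cidea is 1 of the 7 genes in that sum. It made up 28.4 of 29.1 CPM in FF_sham 1 and 79.4 of 97.2 CPM in KO_TAC 2, so low sums are mostly Cidea.

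Of the less studied relatives of the uncoupling proteins, Slc25a14, also called UCP5, rose in KO_TAC (2.71, 4.43, 3.23 and 2.44 CPM) from 1.88 to 2.17 CPM in KO_sham (log2 0.67, SE 0.23, adjusted p = 0.0464). That call was lost without any 1 of the KO_sham hearts, KO_TAC 2 or KO_TAC 3 (adjusted p up to 0.156) and with the replicate block (adjusted p = 0.0693). Slc25a27, or UCP4, was 3.69 to 4.96 CPM in KO_TAC and 5.05 to 7.78 CPM in KO_sham, without overlap and not called (adjusted p = 0.0820). Slc25a30 had a log2 difference of −0.09 (SE 0.15).

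**Figure D4:**
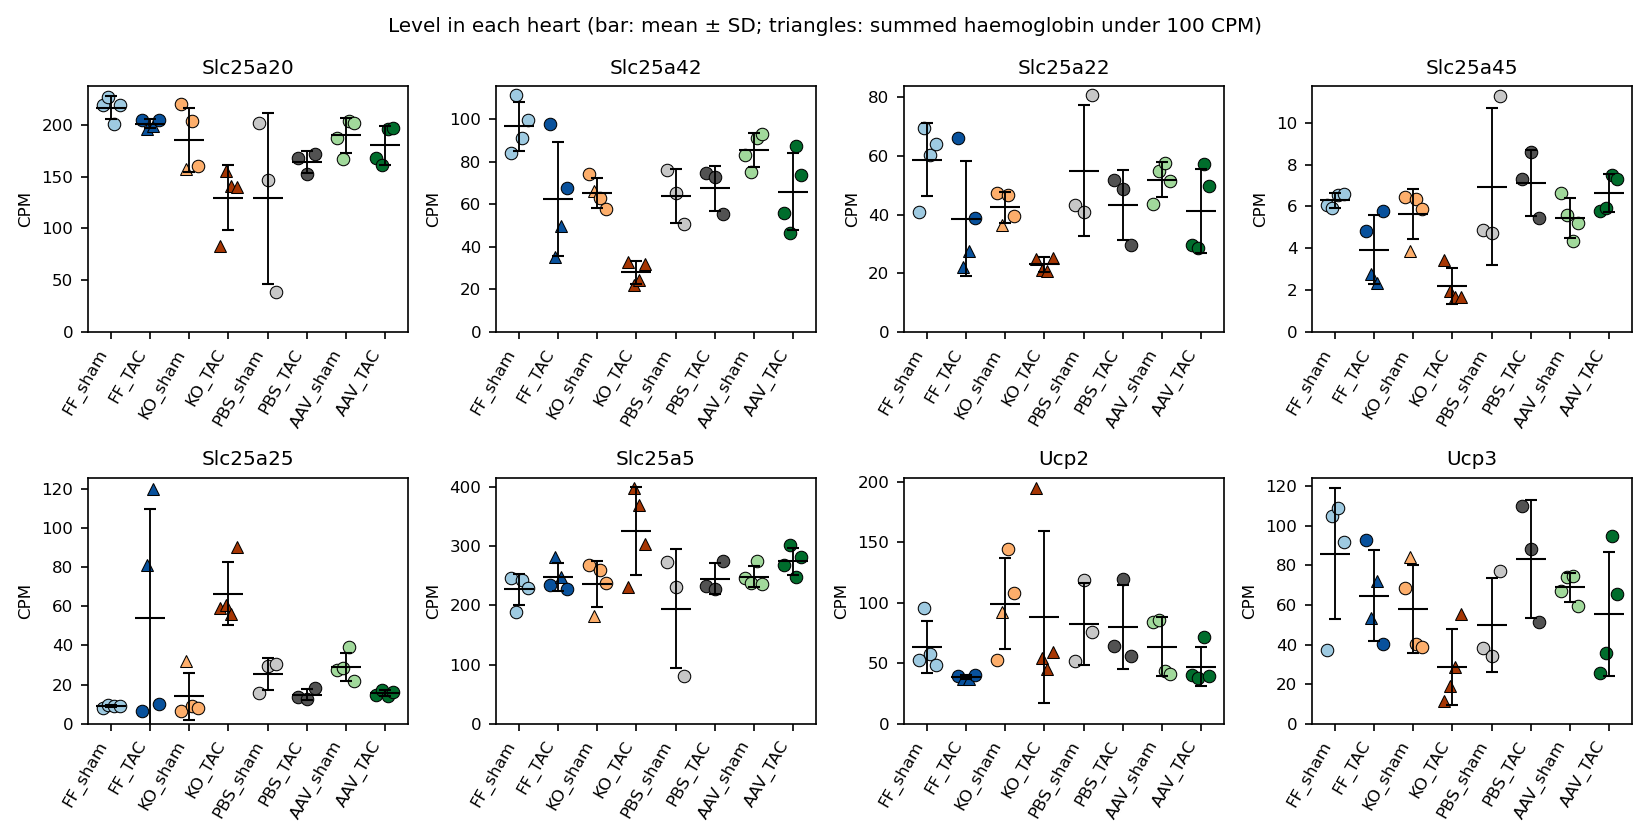
CPM of 8 members in each heart by group; crossbars are means with SD (cut at 0), and triangles are libraries with summed haemoglobin under 100 CPM. KO_TAC hearts are the lowest of the floxed cohort for Slc25a20 (83.5 to 155 CPM) and Slc25a42 (22.2 to 33.0 CPM), and Slc25a25 is high in the triangles of every floxed group that has any.

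The malate-aspartate shuttle moves reducing equivalents from glycolysis into the matrix, and both of its aspartate-glutamate carriers were lower in KO_TAC than in FF_TAC. Slc25a12, the calcium-activated aspartate-glutamate carrier typical of heart and brain, had 148, 119, 115 and 150 CPM in KO_TAC. It had 180, 190, 190 and 170 CPM in KO_sham, 199, 190, 185 and 192 CPM in FF_TAC and 203, 204, 197 and 219 CPM in FF_sham. Every KO_TAC heart lay below every other floxed heart. The log2 fold changes were −0.46 (SE 0.10, adjusted p = 0.00570) from KO_sham and −0.53 (SE 0.10, adjusted p = 0.00315) from FF_TAC. Among haemoglobin-low hearts alone the second was −0.52, and it was −0.52 with an adjusted p of 0.0137 with the haemoglobin term.

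Slc25a13, the other aspartate-glutamate carrier, had 62.3, 89.0, 82.2 and 114 CPM in KO_TAC and 131, 143, 119 and 120 CPM in FF_TAC. It fell by 0.56 on the log2 scale from FF_TAC (SE 0.15, adjusted p = 0.0239), with no overlap, and was not called against KO_sham (−0.36, adjusted p = 0.0880). The call was lost without FF_TAC 1 (adjusted p = 0.0536) or KO_TAC 3 (0.0695), and among haemoglobin-low hearts the difference was −0.61. The oxoglutarate-malate partner Slc25a11 had 282 to 481 CPM in KO_TAC and 386 to 478 CPM in KO_sham and was not called in either comparison, nor were the citrate carrier Slc25a1 and the dicarboxylate carrier Slc25a10. Of the 5 tested members of this group 1 was called lower in KO_TAC than in KO_sham, beside 11.5% of all genes. Lower than in FF_TAC were 2, beside 6.80% of all genes.

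Among the amino acid carriers 3 of 6 tested were called lower in KO_TAC than in KO_sham (11.5% of all genes) and 2 of 6 than in FF_TAC (6.80% of all genes). A group of 6 is too small to read as a result about the role. Slc25a22, a mitochondrial glutamate carrier, had 25.02, 21.2, 20.6 and 25.4 CPM in KO_TAC and 47.4, 36.6, 46.6 and 39.4 CPM in KO_sham. These do not overlap (log2 −0.88, SE 0.26, 1.84-fold lower, adjusted p = 0.0253). The call was lost without KO_sham 1, KO_sham 3, KO_TAC 2 or KO_TAC 3, at adjusted p values of 0.0590 to 0.0763. In FF_TAC the haemoglobin-low hearts 2 and 3 had 22.0 and 27.6 CPM, near the KO_TAC values, while FF_TAC 1 and 4 had 66.1 and 38.7 CPM. The difference of KO_TAC from FF_TAC was −0.74 (adjusted p = 0.0707) over all hearts and −0.13 among haemoglobin-low hearts.

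Slc25a45 (chr19:5877808-5885878, plus strand), a sparsely expressed carrier grouped here with the amino acid carriers, had 3.45, 1.95, 1.67 and 1.67 CPM in KO_TAC and 6.45, 3.89, 6.35 and 5.85 CPM in KO_sham. Its log2 fold change of −1.36 (SE 0.30, 2.56-fold lower, adjusted p = 0.00668) was the largest called fall of a member between KO_TAC and KO_sham, and KO_sham 2, the haemoglobin-low heart, was the lowest of its group. FF_TAC showed the same split, with 2.77 and 2.33 CPM in hearts 2 and 3 and 4.82 and 5.80 CPM in hearts 1 and 4. Among haemoglobin-low hearts KO_TAC stood −0.25 from FF_TAC.

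The ornithine carrier Slc25a15 had 10.2, 6.98, 6.79 and 10.1 CPM in KO_TAC and 13.3, 12.2, 11.8 and 11.5 CPM in KO_sham. It fell by 0.51 from KO_sham (SE 0.15, adjusted p = 0.0252) and by 0.55 from FF_TAC (SE 0.15, adjusted p = 0.0271), where FF_TAC 3 (9.69 CPM) overlapped KO_TAC. Without KO_TAC 3 neither was called (adjusted p = 0.0864 and 0.0935), nor without KO_TAC 2 (0.0720 and 0.0713), and the first was also lost without KO_sham 1 (0.0644) and the second without FF_TAC 1 (0.0821) or FF_TAC 4 (0.0906). Slc25a29, a carrier of basic amino acids, had 5.52, 6.76, 5.23 and 4.23 CPM in KO_TAC and 11.1, 9.41, 5.70 and 8.73 CPM in FF_TAC, again with FF_TAC 3 in the range of KO_TAC (−0.69, SE 0.19, adjusted p = 0.0285). That call was lost without FF_TAC 1 (0.0909), FF_TAC 4 (0.0662), KO_TAC 3 (0.0735) or KO_TAC 4 (0.0581). The glycine carrier Slc25a38 and the branched-chain amino acid carrier Slc25a44 were not called.

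Among the carriers of cofactors, nucleotides and glutathione, 3 of 11 were called lower in KO_TAC than in KO_sham (11.5% of all genes) and 2 than in FF_TAC (6.80% of all genes). Slc25a42 (ENSMUSG00000002346, chr8:70184340-70212305, minus strand), which brings coenzyme A into the matrix, had 33.0, 22.2, 24.6 and 32.1 CPM in KO_TAC. It had 74.3, 66.3, 63.0 and 57.6 CPM in KO_sham, 97.6, 35.2, 49.8 and 67.5 CPM in FF_TAC, and 84.0, 111, 91.0 and 99.7 CPM in FF_sham. The means were 96.4 ± 11.6 CPM (SD, n = 4) for FF_sham, 62.5 ± 26.8 for FF_TAC, 65.3 ± 7.00 for KO_sham and 28.0 ± 5.39 for KO_TAC. KO_TAC hearts were below all 12 others, and the 2 lowest of those 12 were FF_TAC 2 and 3. The log2 fold change was −1.22 from KO_sham (SE 0.24, 2.33-fold lower, adjusted p = 0.00372) and −1.16 from FF_TAC (SE 0.24, 2.23-fold lower, adjusted p = 0.00558). Over haemoglobin-low hearts alone KO_TAC stood −0.63 from FF_TAC (adjusted p = 0.430). KO_sham lay below FF_sham without overlap (−0.56, SE 0.23), with an unadjusted p of 0.0291 and an adjusted p of 0.922.

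Slc25a51, the carrier of NAD into the matrix, had 51.4, 42.4, 41.4 and 49.0 CPM in KO_TAC against 57.8 to 62.3 CPM in KO_sham and 59.2 to 68.8 CPM in FF_TAC. It was lower by a small but even amount: −0.39 (SE 0.10, adjusted p = 0.0123) and −0.48 (SE 0.10, adjusted p = 0.00528). Slc25a40, a glutathione carrier beside the more abundant Slc25a39, had 7.19 to 8.29 CPM in KO_TAC and 9.12 to 10.6 CPM in KO_sham (−0.34, SE 0.11, adjusted p = 0.0402), a call that held only without KO_sham 2 or KO_TAC 4 among the 8 fits leaving out a library. Slc25a39 itself had a log2 difference of 0.07 (SE 0.10). Slc25a16 (−0.37, adjusted p = 0.0621), the peroxisomal carrier Slc25a17, the S-adenosylmethionine carrier Slc25a26, Slc25a32, Slc25a33 and Slc25a36 were not called.

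Of the mitoferrins, which import iron for haem and iron-sulfur clusters, Slc25a37 had 17.0, 13.1, 13.1 and 16.6 CPM in KO_TAC and 20.9, 20.0, 22.5 and 21.3 CPM in KO_sham, without overlap (−0.50, SE 0.15, adjusted p = 0.0251). Slc25a37 is abundant in red cell precursors, and 4 of 6 tested erythroid markers were called lower in the same comparison, beside 11.5% of all genes. The erythroid list includes the 4 haemoglobin genes that define the haemoglobin-low libraries. The part of red cell RNA in the Slc25a37 difference was not tested. In FF_TAC the haemoglobin-low libraries had 12.5 and 17.9 CPM of Slc25a37 and the others 22.9 and 20.5 CPM. In KO_sham the haemoglobin-low library, KO_sham 2, had 20.0 CPM, with 20.9 to 22.5 CPM in the rest of its group. With the haemoglobin term the KO_TAC difference was −0.25, and the call was lost without KO_sham 3 (adjusted p = 0.0617), KO_sham 4 (0.0548), KO_TAC 2 (0.0705) or KO_TAC 3 (0.0826). Slc25a28, the mitoferrin of other tissues, was not called (−0.16, SE 0.08).

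The abundant orphan carrier Slc25a34 had 57.4, 128, 110 and 101 CPM in KO_TAC and 181, 153, 160 and 166 CPM in FF_TAC, with no overlap (−0.73, SE 0.19, 1.66-fold lower, adjusted p = 0.0186). Among haemoglobin-low hearts the difference was −0.68. It was also lower in KO_sham (148, 144, 133 and 114 CPM) than in FF_sham (203, 171, 176 and 237 CPM) in every heart, at an unadjusted p of 0.0105 and an adjusted p of 0.90, the smallest member p of that comparison. Slc25a38 (−0.22, SE 0.09) was the third by p there after Slc25a42. Slc25a35, Slc25a46, Slc25a47 and Slc25a53 were not called in the floxed cohort.

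In floxed hearts, overload left the 3 members with the smallest p uncalled. Besides Slc25a25 these were Slc25a28, at 28.0, 27.7, 26.7 and 26.6 CPM in FF_TAC and 29.5 to 33.9 CPM in FF_sham (−0.24, SE 0.08, adjusted p = 0.344), and Slc25a42 (−0.62, SE 0.23, adjusted p = 0.381). Slc25a28 was even in haemoglobin-high and haemoglobin-low hearts, and its value over haemoglobin-high hearts alone was also −0.24. Slc25a20 differed by −0.11 (SE 0.16), Ucp3 by −0.41 (SE 0.44) and Ucp2 by −0.72 (SE 0.41).

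The AAV9 cohort gave a single call. Slc25a25 had 15.7, 29.5 and 30.4 CPM in PBS_sham and 13.8, 12.5 and 18.2 CPM in PBS_TAC. It had 27.2, 28.3, 39.1 and 21.6 CPM in AAV_sham and 14.4, 17.2, 14.3 and 16.2 CPM in AAV_TAC. The TAC difference averaged over both arms was −0.83 (SE 0.17, adjusted p = 0.0328), the 1 of 43 members called where 0.908% of all genes were. The call held without PBS_sham 1, PBS_sham 3 or AAV_sham 4 and was lost in the other 11 fits that left out a library (adjusted p up to 0.107) and with the replicate block (adjusted p = 0.0583). In the floxed cohort the TAC differences of this gene over all libraries were positive. The FF_TAC rise lay in its haemoglobin-low libraries: the haemoglobin-high ones had 6.36 and 9.84 CPM, with 8.07 to 9.32 CPM in FF_sham. All AAV9 libraries were haemoglobin-high (294 to 943 CPM), so the directions of the cohorts are not set against each other. The summed early response genes in the AAV9 cohort were 501 to 1312 CPM in sham and 576 to 907 CPM in TAC hearts. Their part was not tested.

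Within the arms no member was called by edgeR. For PBS_TAC against PBS_sham 0.0318% of all genes were called, and 5 of 43 members had an unadjusted p under 0.05, with 18.5% of all genes. The 3 smallest p were those of the liver-enriched orphan Slc25a47 (−0.85, SE 0.23, adjusted p = 0.147), Slc25a25 (−0.76, SE 0.25, adjusted p = 0.188) and Slc25a1 (−0.83, SE 0.30, adjusted p = 0.201). DESeq2 called Slc25a47. For AAV_TAC against AAV_sham (0.00635% of all genes called, 1 of 43 members at an unadjusted p under 0.05 beside 7.05% of all genes), Slc25a25 differed by −0.90 (SE 0.22, adjusted p = 0.221) with no overlap and was called by DESeq2. Slc25a42 (−0.37, SE 0.19) and Slc25a33 (−0.42, SE 0.26) followed it.

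The vector without overload went with no called carrier either. For AAV_sham against PBS_sham 0.0127% of all genes were called, and 5 of 43 members had an unadjusted p under 0.05, with 20.7% of all genes. Slc25a1, the citrate carrier that feeds cytosolic lipid synthesis, had 7.61, 10.1, 7.43 and 6.54 CPM in AAV_sham and 7.56, 20.6 and 21.1 CPM in PBS_sham (−1.06, SE 0.28, adjusted p = 0.131), and was called by DESeq2. The libraries PBS_sham 2 and 3, where it was high, had adipocyte sums of 435 and 226 CPM against 24.7 to 42.0 CPM in AAV_sham. Of the AAV_sham sums, 24.7 to 28.8 CPM were Cidea alone. Adipoq was 41.7 and 16.4 CPM in PBS_sham 2 and 3 against 0 to 1.92 CPM in AAV_sham. The part of adipocyte RNA in the Slc25a1 values was not tested. Slc25a47 (−0.70, SE 0.21, adjusted p = 0.156) and Slc25a18 (−1.80, SE 0.69, adjusted p = 0.191) came next. Without PBS_sham 1, 8 members were called here, when 17.4% of all genes were, and 4 for PBS_TAC against PBS_sham, when 11.1% were.

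PBS_sham 3 had the lowest value of all 30 hearts for 15 members, among them 1575 CPM of Slc25a4, 458 CPM of Slc25a3, 80.6 CPM of Slc25a5 and 38.6 CPM of Slc25a20, with 201 and 147 CPM of Slc25a20 in PBS_sham 1 and 2. The share of all genes lowest in this heart was not computed, and CPM were scaled within each cohort. Not only carriers were low: PBS_sham 3 also had the lowest sums of cardiomyocyte markers (25666 CPM) and of ATP synthase subunits (6018 CPM, at least 12290 CPM elsewhere). Summed smooth muscle markers in it were 1797 CPM against 61.5 to 344 CPM elsewhere. Slc25a37 was highest there (50.1 CPM), with 17.3 and 21.1 CPM in the rest of its group. Without this heart, the cohort held Slc25a4 at 3895 to 5401 CPM, Slc25a3 at 1324 to 1803 CPM, Slc25a5 at 227 to 302 CPM, Slc25a20 at 147 to 204 CPM and Slc25a37 at 14.8 to 21.5 CPM.

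No member was called between the vector arms under overload, where Cpt1a itself differed by only 0.05 (SE 0.21). For AAV_TAC against PBS_TAC 0.0381% of all genes were called, 0 of 43 members had an unadjusted p under 0.05 beside 3.19% of all genes, and DESeq2 called none. Ucp2 had the smallest p, with 39.8, 37.9, 71.9 and 39.2 CPM in AAV_TAC and 63.9, 119 and 56.0 CPM in PBS_TAC (−0.76, SE 0.37, unadjusted p = 0.0589). Slc25a33 (−0.49, SE 0.28) and Slc25a36 (0.21, SE 0.13) followed. Slc25a20 was 161 to 197 CPM in AAV_TAC and 152 to 172 CPM in PBS_TAC (0.14, SE 0.35), and Slc25a4 differed by 0.09 (SE 0.31). Ucp3 had 25.5, 35.6, 95.0 and 65.8 CPM in AAV_TAC and 110, 88.1 and 51.1 CPM in PBS_TAC, which overlap (−0.58, SE 0.40). The interaction of vector and TAC was called for 0.00635% of all genes and no member, also by DESeq2, and none had an unadjusted p under 0.05 (6.95% of all genes). Among its smallest p were those of Slc25a1 (0.85, SE 0.41) and Slc25a33 (−0.73, SE 0.39).

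Genes around the carriers were read from fixed lists. Their counts between KO_TAC and KO_sham stand beside 14.3% of all genes called higher and 11.5% called lower. The TIM22 complex, which inserts carriers into the inner membrane, had 1 of 9 genes called between KO_TAC and KO_sham, Timm29 (−0.32, SE 0.10, adjusted p = 0.0281), and the list's median was 0.32. None of 15 tested ATP synthase subunits was called. Of 21 other mitochondrial transporters 3 rose and 4 fell between KO_TAC and KO_sham. Among those that rose were the calcium uniporter parts Micu2 (0.51) and Smdt1 (0.70), and among those that fell were the sideroflexins Sfxn2 (−0.89) and Sfxn5 (−0.85) and the transporter Abcb10 (−0.59). Of 16 PPAR-alpha target genes of fatty acid use, 8 fell and none rose in the same comparison, led by Acot2 (−0.79, SE 0.15, adjusted p = 0.00294), Slc27a1 (−0.76), Acadvl (−0.71) and Cpt2 (−0.69). Cpt2, the inner-membrane enzyme that takes over acylcarnitines from Slc25a20, stood −0.88 (SE 0.14, adjusted p = 0.00139) from FF_TAC. No gene of these 4 lists was called in FF_TAC against FF_sham, where 0% of all genes were called. None was called in the averaged TAC comparison of the AAV9 cohort either, where 0.908% of all genes were. With so few calls over all genes, this draws no contrast with the knockout.

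Among the 50 members, 13 share exon sequence with a gene on the opposite strand, so that their counts are uncertain, among them Slc25a10, Slc25a11, Slc25a18, Slc25a21, Slc25a23, Slc25a25, Slc25a26, Slc25a33, Slc25a35, Slc25a37, Slc25a46 and Ucp2. Dnajb13, the partner of Ucp2, had at most 1.44 CPM in a library, and the partners of Slc25a37, Gm27223 and Gm31748, had none. Slc25a5 has a pseudogene row of its own, which had at most 0.106 CPM.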

How the data were processed

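RNA from whole mouse hearts was made into directional poly(A) libraries and sequenced as paired 100-base reads, per the labels' protocols. The deposited file is the authors' table of raw counts per Ensembl gene and library. HISAT2 2.1.0, featureCounts, Subread 1.5.1 and GRCm38 are named, without role or order, per the submitters' processing notes. The annotation release and strand setting are not given in the sources used here. Symbols, exon lengths and coordinates come from GENCODE M21 (GRCm38), which named 55227 of 55487 rows. Rows without a symbol held 0.0034% of counts.

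Each cohort was fitted alone with edgeR 4.0.16 in R 4.3.3 (TMM factors, filterByExpr, one mean per group, quasi-likelihood F test), and p-values were adjusted by the Benjamini-Hochberg method over all 15596 (floxed) or 15745 (AAV9) genes tested. The threshold was 0.05. The procedure was tested on simulated data. CPM were scaled by TMM within a cohort, so levels set across cohorts are approximate. The members, role groups and gene lists were chosen with earlier results of these data known. Among called members whose higher group averaged 5 CPM or more, the 6 largest rises and falls of a comparison were named with every library, and with fewer than 3 called members the 3 smallest p. Slc25a20, Slc25a4, Slc25a5, Slc25a3, Slc25a37 and the uncoupling proteins were always named. Other members were named after their values were seen. Replicates were compared for duplication over 42 pairs, and the lowest chi-square per degree of freedom was 6.29. Labels do not say that replicates are separate animals, so p-values measure the spread between these libraries. Alternatives were DESeq2 1.42.0, other scalings and filters, a replicate block, terms for haemoglobin and Myl7, and leaving out libraries. Promoter windows come from RefSeq. A part of the study on miR370 was not analysed here. Some items are not reported here.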

Additional observations from a re-analysis of the deposited data

Results flagged for a closer look

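In 10 of 169 groups of 4 hearts examined for 29 members, 1 heart lay far outside the rest of its group, its gap to the nearest heart being above Dixon's 95% critical value. Chance alone flags about 1 group in 20. Slc25a25 was 32.0 CPM in KO_sham 2, with 6.36 to 9.0 CPM in the rest of the group, and 90.6 CPM in KO_TAC 4, with 56.0 to 60.5 CPM in the rest. KO_sham 2 is the haemoglobin-low heart of its group and also the KO_sham heart with the highest Cpt1a (46.3 CPM). It had the highest Myl7 of its group too, 602 CPM, with 0.277 to 393 CPM in the rest. KO_TAC 4 had the lowest Myl7 of its group, 0.119 CPM. Ucp2 was 195 CPM in KO_TAC 1 against 45.5 to 59.1 CPM and 71.9 CPM in AAV_TAC 3 against 37.9 to 39.8 CPM. Each of these hearts had the highest Myl7 of its group, 3147 and 275 CPM, with under 1 CPM in the rest. Slc25a45 was 3.45 CPM in KO_TAC 1 against 1.67 to 1.95 CPM. Ucp1 was 108 CPM in FF_sham 2 and 0 in the rest of the group. FF_sham 2 had the highest Myl7 of its group, 1106 CPM, with 0.0611 to 36.8 CPM in the rest.

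Slc25a13 was 124 CPM in AAV_sham 2 against 140 to 142 CPM, the heart of that group with the highest Myl7 (912 CPM). Slc25a37 was 14.8 CPM in AAV_TAC 2 against 16.9 to 17.3 CPM. Slc25a47, an orphan carrier, was 5.59 CPM in FF_TAC 1 against 4.11 to 4.28 CPM. Slc25a31, the ADP/ATP carrier of the germ line, was 0.994 CPM in AAV_sham 3 against 0.307 to 0.424 CPM.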

How the results depend on the processing

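Over 57 reported results and 583 refits other than leaving out a library, 495 kept their direction and side of the threshold, 71 lost the call, 15 gained one and 2 reversed. Of the 57, only the 11 called for KO_TAC against KO_sham, the 8 for KO_TAC against FF_TAC and 1 in the averaged TAC comparison had a call to lose. All 71 losses fall on these. For the rest, keeping the side means staying uncalled, so the 495 do not measure how firm the calls are. The reversals were Slc25a25 in FF_TAC against FF_sham over haemoglobin-high libraries (−0.13) and Slc25a4 in KO_TAC against FF_TAC over libraries with Myl7 under 100 CPM (0.059), a setting chosen after seeing the data. Counts of called members for KO_TAC against KO_sham (11) and KO_TAC against FF_TAC (8) were 7 and 0 when only the groups compared were fitted, 0 and 3 with the haemoglobin term, 0 and 1 with the haemoglobin term and replicate block together, and 0 for the second over haemoglobin-low libraries alone, where 6 libraries remain. DESeq2 called 1 member each in FF_TAC against FF_sham, PBS_TAC against PBS_sham, AAV_TAC against AAV_sham and AAV_sham against PBS_sham, where edgeR called 0, and 2 instead of 1 in the averaged TAC comparison. The averaged count was 0 with library totals alone, 0 with the Myl7 covariate and 0 with the replicate block. AAV_TAC against AAV_sham had 1 call with only its own groups fitted. Where no cause is named, the cause was not tested.

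Leaving out a library gave 4 to 15 calls for KO_TAC against KO_sham (12.3% to 40.8% of all genes called), 5 to 12 for KO_TAC against FF_TAC (7.06% to 24.3%), 0 to 4 for PBS_TAC against PBS_sham (4 without PBS_sham 1), 0 to 8 for AAV_sham against PBS_sham (8 without PBS_sham 1) and 0 to 4 for the averaged TAC comparison (4 without PBS_sham 1, 2 without PBS_sham 3). Directions turned in such fits for Slc25a4 (−0.024 to 0.39), Slc25a3 (−0.13 to 0.047) and Ucp2 (−0.91 to 0.064) between KO_TAC and KO_sham and for Slc25a4 between KO_TAC and FF_TAC (−0.36 to 0.057), none of them called with all libraries.

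With the replicate number as a block, 9 members were called for KO_TAC against KO_sham and 8 for KO_TAC against FF_TAC, and the calls of Slc25a14, Slc25a40 (adjusted p = 0.0517) and the averaged Slc25a25 were lost. The numbers did not pair the hearts: over 43 same-numbered pairs the correlation of deviations ran from −0.41 to 0.45, and in 0 of 12 group pairs did every pair exceed 0.1. Library totals alone moved the median of all genes in the AAV9 cohort, to −0.21 for PBS_TAC against PBS_sham, −0.27 for AAV_sham against PBS_sham and 0.21 for the interaction, and turned the split of all genes called for KO_TAC against FF_TAC from 1175 higher and 1060 lower to 1619 and 669. Members under about 1 CPM are limited by depth.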
